A study of Mus musculus with 12 samples.

Results

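The comparison described here sets 3 untreated pancreatic tumours of Cdh11 heterozygous mice against 3 untreated tumours of Cdh11 wild-type mice, which together are 6 of the study's 12 libraries. They were chosen by their titles and labels. The heterozygous group is KPC/CDH11+/-, untreated, and the wild-type group is KPC/CDH11+/+, untreated, both of the strain background C57BL/6; 129. KPC mice are a genetic model of pancreatic cancer in which a Cre recombinase switches on tumour-driving alleles, so that both groups carry those alleles and differ by label in 1 copy of Cdh11. The sources used here do not give the cell type that the Cre drives, the ages of the mice or the parentage of the groups. The design gives 3 mice per group. The edgeR p-values set the difference against a spread between tumours of 1 group that was estimated over all 12 libraries. The other 6 libraries, from gemcitabine-treated tumours of both genotypes, entered the model fit and appear below only beside results. RNA was total RNA of snap-frozen tumour, depleted of ribosomal RNA and primed at random, and the deposited values are expected counts per gene.

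Cdh11 encodes cadherin 11, a calcium-dependent adhesion protein that joins mesenchymal cells such as fibroblasts to each other. Pancreatic ductal adenocarcinoma is known for a dense stroma of fibroblasts and matrix around epithelial tumour glands. The values below cover genes outside the matrix and immune markers, above all noncoding RNA, ribosome and growth-control genes.

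Cdh11 itself was measured at 148, 115 and 73.7 CPM in the heterozygous tumours, against 225, 283 and 165 CPM in the wild-type tumours. The groups did not overlap, and the log2 fold change (heterozygous over wild-type; ± is the standard error from edgeR throughout) was -1 ± 0.37, with an adjusted p of 0.329 in edgeR's quasi-likelihood test. Transcripts annotated inside Cdh11 were lower too, and are named for their position after their values were seen. The log2 fold changes were -2.66 ± 0.48 for 9430099M06Rik, -1.63 ± 0.51 for Gm45257 and -1.20 ± 0.51 for Gm45258. The groups overlapped for Gm45258. All lie on the strand of Cdh11, so that the source of their reads is uncertain. Within 5 Mb on either side of Cdh11 on chromosome 8, 124 genes were tested. At an unadjusted p under 0.05, 9 of them (7.26%) were higher and 8 (6.45%) lower. These shares were near those of all genes, 5.51% and 6.65%. The nearest tested protein-coding genes included Tk2, a mitochondrial kinase, at 28.8, 29.2 and 20.6 CPM in the heterozygous tumours, against 20.6, 22.1 and 22.8 CPM in the wild-type tumours. The groups overlapped. Cdh5, the endothelial cadherin, lies in the same region and had a log2 fold change of -1.06 ± 0.20.

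The 6 libraries held between 40628424 and 56559413 counts, and 24065 genes were tested. Heterozygous tumour 3 stood apart from the other 5 libraries on the first principal component, at 130.3 against values between -69.1 and 32.9. Xist, which marks the inactive X chromosome of females, was high in heterozygous tumour 1 and in wild-type tumours 1 and 3 only. Of 12 fibroblast markers, a list that includes Cdh11 itself, 12 were lower in the heterozygous tumours. Their summed level, Cdh11 included, was 4337 to 7170 CPM there and 11382 to 17494 CPM in wild-type tumours. In bulk tissue, fewer cells of a type and less RNA per cell cannot be told apart. Markers of acinar cells, the enzyme-secreting cells of normal pancreas, summed to 6.95 to 33.1 CPM in heterozygous and 9.37 to 659.5 CPM in wild-type tumours, with Cela3b, Pnlip and Try4 at 0 in all 3 heterozygous tumours. Islet markers summed to 1.01 to 7.38 CPM in heterozygous and 22.1 to 291 CPM in wild-type tumours. Epithelial duct markers overlapped between the groups.

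Only 4 genes passed an adjusted p of 0.05 in edgeR, 1 higher (0.00416% of the genes tested) and 3 lower (0.0125%). DESeq2 called 279 higher (1.16%) and 424 lower (1.76%). At an unadjusted p under 0.05 in edgeR, 1327 genes were higher (5.51%) and 1601 lower (6.65%). In 1771 genes (7.36%) all 3 heterozygous values lay above all 3 wild-type values, and in 2023 genes (8.41%) all 3 lay below. The median log2 fold change over all genes was 0.04. No gene named below other than those 4 passed adjustment in edgeR. CPM are counts scaled to a common library size with TMM factors.

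Lrat, the enzyme that stores retinol as retinyl ester and marks quiescent stellate cells, fell in the heterozygous tumours. It had 0, 0.173 and 0.119 CPM in the heterozygous tumours, against 7.28, 8.81 and 9.84 CPM in the wild-type tumours, a log2 fold change of -6.43 ± 0.79 (edgeR adjusted p = 0.0289). With heterozygous tumour 2 or 3, or wild-type tumour 1 or 2, left out the adjusted p of Lrat in edgeR was 0.0705, 0.117, 0.0830 and 0.113, and with the acinar markers as a covariate it was 0.166. The antisense transcript Rbm46os overlaps Lrat, and the sources used here do not say whether reads were assigned by strand. The other 3 calls lie in sets of near-identical genes, among which reads are shared out by estimate. Gm10260, a copy of the ribosomal protein gene Rps18, fell to 0.9, 0.929 and 1.51 CPM in the heterozygous tumours, against 143, 206 and 123.3 CPM in the wild-type tumours (edgeR adjusted p = 0.000126). Rps18 itself had 612, 387 and 720.2 CPM in the heterozygous tumours, against 21.2, 33.8 and 282 CPM in the wild-type tumours. Summed over Rps18 and its copies, the log2 fold change was 0.61 ± 0.35, and the groups overlapped. Trim12a, a tripartite-motif gene, had 8.74, 16.8 and 20.2 CPM in the heterozygous tumours, against 0.154, 0.369 and 0.118 CPM in the wild-type tumours. It rose by 6.15 ± 0.58 on the log2 scale (edgeR adjusted p = 0.00281; 0.0534 without wild-type tumour 1), but the sum of Trim12a, Trim12c and Trim5 differed by 0.30 ± 0.31. BC023719, a noncoding gene on chromosome 17, had 0 counts in every heterozygous tumour and was at least 77.8-fold lower than in wild-type tumours, taking 3 counts per library as the limit (edgeR adjusted p = 0.000417). Summed with its near-identical copy A930015D03Rik, the log2 fold change was -1.65 ± 0.37 and the groups did not overlap, but the call was lost (edgeR adjusted p = 0.183). In a fit of the 6 untreated libraries alone, the edgeR adjusted p was 0.105 for Trim12a, 0.131 for BC023719 and 0.223 for Lrat, so that Gm10260 alone of the 4 stayed called. BC023719 also overlaps H2-T-ps and H2-T10 on the opposite strand, which were lower too (log2 fold changes of -2.60 ± 0.55 and -0.76 ± 0.29). Splitting among copies applies likewise to Rps13 (alone 1.98 ± 0.28, with its copies 0.62 ± 0.26), Rpl34 (alone 2.65 ± 0.47, with its copies 0.54 ± 0.26) and the class I histocompatibility gene H2-T23 (alone 2.21 ± 0.40, with its copy 1.65 ± 0.33).

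Small nucleolar RNAs were higher in the heterozygous tumours more often than genes at large. These short noncoding RNAs guide chemical modification of ribosomal and spliceosomal RNA: box C/D members guide methylation of the ribose, and box H/ACA members guide the change of uridine to pseudouridine. Most are cut from the introns of host genes, many of which encode ribosomal proteins. Of 161 small nucleolar RNAs tested, 149 were higher in the heterozygous tumours, 77 of them (47.8%) at an unadjusted p under 0.05 against 5.51% of all genes, and 0 were lower at that p. In 78 of them (48.4%, against 7.36% of all genes) every heterozygous value lay above every wild-type value, and the median log2 fold change was 0.98. Some entries had identical values and are not separate measurements. Rnu3b1, Rnu3b2, Rnu3b3 and Rnu3b4 each had an entry at 0.62, which met that p, and an entry at 0.23, which did not. Gm22579 and Gm24539 were both at 2.00, and Gm23658 and Snora19 both at 0.60. The 6 sequences below are printed because their groups did not overlap and they show both families; Snora30, chosen after its values were seen, sits in a host gene with a log2 fold change near 0.
Snord22: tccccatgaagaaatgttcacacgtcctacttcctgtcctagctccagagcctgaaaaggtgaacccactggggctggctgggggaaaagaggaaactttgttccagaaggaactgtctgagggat
Snord15a: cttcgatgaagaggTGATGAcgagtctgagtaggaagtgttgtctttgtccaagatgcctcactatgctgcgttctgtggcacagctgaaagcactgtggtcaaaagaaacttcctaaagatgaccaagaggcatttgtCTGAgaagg
Snord15b: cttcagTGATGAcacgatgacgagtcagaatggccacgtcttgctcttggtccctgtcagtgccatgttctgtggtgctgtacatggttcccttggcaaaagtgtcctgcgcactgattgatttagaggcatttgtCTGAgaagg
Snord21: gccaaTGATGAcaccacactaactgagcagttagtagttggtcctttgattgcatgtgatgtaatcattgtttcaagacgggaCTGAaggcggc
Snora73b: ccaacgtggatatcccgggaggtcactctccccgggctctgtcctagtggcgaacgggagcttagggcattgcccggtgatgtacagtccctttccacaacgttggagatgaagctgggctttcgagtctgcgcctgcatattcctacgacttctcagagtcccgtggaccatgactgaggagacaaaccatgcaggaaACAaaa
Snora30: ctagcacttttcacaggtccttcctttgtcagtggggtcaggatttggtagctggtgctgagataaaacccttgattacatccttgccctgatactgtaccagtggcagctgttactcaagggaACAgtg
The sequences are transcripts of GENCODE M21 on GRCm38, written as DNA from the 5′ to the 3′ end. Capitals mark, in box C/D members, TGATGA (box C) and a later CTGA (box D) and, in box H/ACA members, ACA placed 3 bases before the 3′ end (ACANNN). Snord22 lies at chr19:8725866-8725991, plus strand, Snord15a at chr7:99482785-99482932, minus strand, Snord15b at chr7:99479563-99479707, minus strand and Snord21 at chr5:107904555-107904648, plus strand. Snora73b lies at chr4:132352322-132352526, minus strand, and Snora30 at chr7:127527874-127528003, plus strand. On the RNA strand, 14 of 17 tested Snord sequences (82.4%) held the box C and box D letters and 29 of 35 tested Snora sequences (82.9%) held the end ACA, while 0 of either family held the motif of the other; the transcribed strand alone was searched. Snord22 does not hold these exact letters.

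Snord22 had the smallest p of the class. It stood at 74, 73.6 and 79.4 CPM in the heterozygous tumours, against 28.6, 25.9 and 35.2 CPM in the wild-type tumours, a log2 fold change of 1.34 ± 0.18 (edgeR adjusted p = 0.0515; 7.2e-09 to 0.364 over the alternatives). Each heterozygous value was over 2-fold the highest wild-type value. Summed with Snhg1, its host transcript, the log2 fold change was 1.12 ± 0.20. Snord15b, which is cut from the ribosomal protein gene Rps3, had 165, 193 and 142 CPM in the heterozygous tumours, against 87.5, 79.8 and 79.9 CPM in the wild-type tumours. Its neighbour Snord15a from the same gene had 31.3, 45.9 and 30.2 CPM in the heterozygous tumours, against 12.1, 9.98 and 15.1 CPM in the wild-type tumours. Both pairs of groups were apart, with log2 fold changes of 1.02 ± 0.24 and 1.53 ± 0.38. Snora73b, which lies in the Rcc1 gene, was at 292, 248 and 465 CPM in the heterozygous tumours, against 167, 149.9 and 161 CPM in the wild-type tumours. The groups were apart, and heterozygous tumour 3 was the highest. By family, 35 of 35 box H/ACA members were higher, 24 at an unadjusted p under 0.05, with a median log2 fold change of 1.13, and 16 of 17 named box C/D members were higher, 8 at that p, with a median of 1.01. Small RNAs of Cajal bodies, which guide the same modifications on spliceosomal RNA, were higher in 7 of 7 cases (4 at that p, median 1.22). Scarna2 had 117, 99.3 and 136 CPM in the heterozygous tumours, against 30.5, 48.6 and 57 CPM in the wild-type tumours. Scarna6 had 55.3, 50.8 and 50.8 CPM in the heterozygous tumours, against 16.6, 18.1 and 26.6 CPM in the wild-type tumours. Neither overlapped. Spliceosomal small nuclear RNAs were higher in 56 of 71 cases, 13 at that p against 1 lower, with a median of 0.43. This rise depended more on single libraries. The count at that p was 3 without wild-type tumour 2, 4 without heterozygous tumour 2 and 1 with acinar markers as a covariate. It lay between 1 and 17 over all alternatives, against 5.51% of all genes in the main fit.

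**Figure D1:**
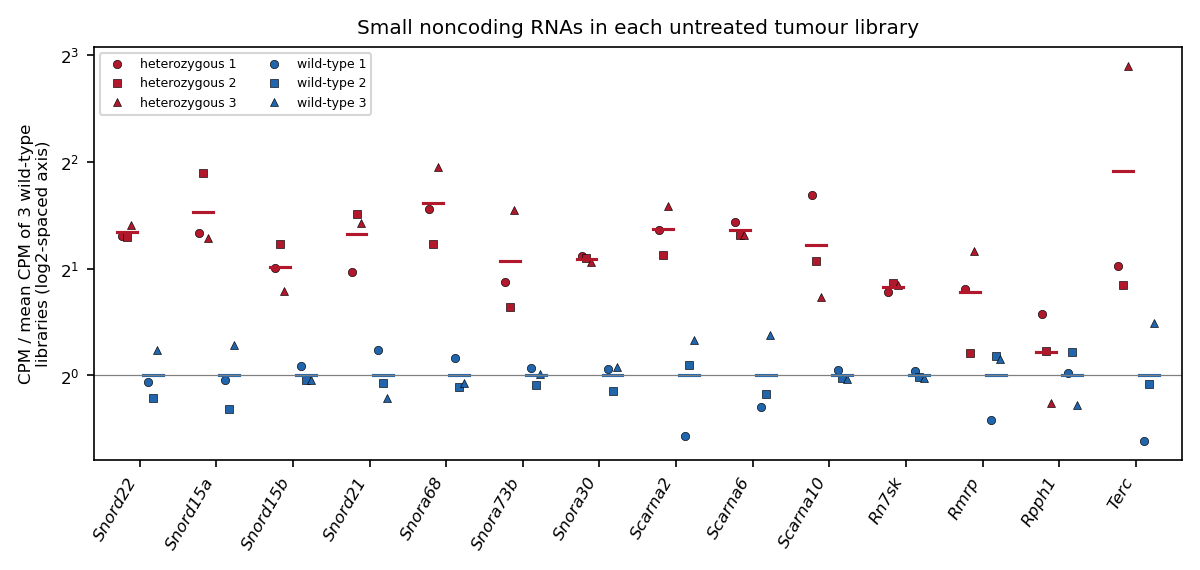
Each point is 1 untreated tumour and shows its CPM divided by the mean CPM of the 3 wild-type tumours (log2-spaced axis), heterozygous in red left of wild-type in blue, with bars at the group means. All 3 heterozygous tumours lie above all 3 wild-type tumours for every RNA shown except Rpph1, and Terc is highest in heterozygous tumour 3.

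Of the 161 small nucleolar RNAs, 131 lie within another tested gene, and a comparison with these hosts was made after the values were seen. The small nucleolar RNAs with a host had a median log2 fold change of 0.99, against 0.27 for their 98 hosts. The small RNA was above its host in 124 of 131 pairs, with a median difference of 0.75. Of the 67 of them that were higher at an unadjusted p under 0.05, 51 had a host that did not meet that p. These counts include the entries with identical values named above. Snora30 is an example: its log2 fold change was 1.09 ± 0.31, and it had 1.38, 1.36 and 1.33 CPM in the heterozygous tumours, against 0.662, 0.576 and 0.671 CPM in the wild-type tumours. Its host Srcap, a chromatin remodeller, was at 0.14. For Snord15a and Snord15b the host Rps3 was at 0.71, and for Snord21 the host Rpl5 at 0.48. Expected counts per gene do not tell the finished small RNA from host intron RNA that covers it.

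Other abundant noncoding RNAs were higher in part. Rn7sk, the 7SK RNA that holds the elongation factor P-TEFb inactive, had 25932, 27568 and 27249 CPM in the heterozygous tumours, against 15572, 14962 and 14870 CPM in the wild-type tumours, with a log2 fold change of 0.83 ± 0.21 and a narrow spread in both groups. Rmrp, the RNA of an enzyme that cuts ribosomal RNA precursors, was named after its values were seen, like Rpph1. It had 4468, 2953 and 5711 CPM in the heterozygous tumours, against 1910, 2889 and 2838 CPM in the wild-type tumours, and heterozygous tumour 2 was barely above the wild-type tumours. Rpph1, the RNA of ribonuclease P, which trims transfer RNA, overlapped, at 3192, 2520 and 1789 CPM in the heterozygous tumours, against 2172, 2492 and 1769 CPM in the wild-type tumours. Terc, the RNA template of telomerase, was at 2.68, 2.38 and 9.83 CPM in the heterozygous tumours, against 0.86, 1.25 and 1.85 CPM in the wild-type tumours, with heterozygous tumour 3 far above the rest. As shares of all counts, small nucleolar RNAs held 0.349%, 0.306% and 0.434% in the heterozygous tumours, against 0.209%, 0.191% and 0.173% in the wild-type tumours. Small Cajal body RNAs held 0.0678%, 0.0610% and 0.0681% in heterozygous, against 0.0251%, 0.0311% and 0.0329% in wild-type tumours. Protein-coding genes held 78.3%, 77.8% and 79.7% in heterozygous, against 82.3%, 82.8% and 82.1% in wild-type tumours. Each of these 3 shares separated the groups, with a two-sided exact permutation p of 0.1, the smallest that 3 against 3 libraries allow. The count of small nucleolar RNAs at an unadjusted p under 0.05 was 48 without heterozygous tumour 3 (median 0.75) and 21 with the mean level of acinar markers as a covariate (median 0.65), with 3 of 35 box H/ACA and 7 of 17 box C/D members at that p. In the gemcitabine-treated tumours, those labelled heterozygous had 44 of the 161 higher than wild-type and 117 lower, with 1 higher (background 4.66%) and 4 lower (background 2.89%) at an unadjusted p under 0.05 and a median of -0.29.

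Genes for the ribosome and its assembly were also more often higher, by smaller amounts. Cytosolic ribosomal protein genes were higher in 78 of 81 cases, and their median was 0.51 (log2). At an unadjusted p under 0.05, 22 were higher and 0 lower, against 5.51% and 6.65% of all genes. Because 74 of the 81 have near-identical copies, their counts were also summed with the copies, which gave 79 of 81 higher, 19 at that p and a median of 0.47. The family held 2.76%, 1.78% and 3.18% of counts in the heterozygous tumours, against 1.55%, 1.75% and 1.88% in the wild-type tumours. Heterozygous tumour 2 lay within the wild-type range, and the exact permutation p was 0.2. Eef2, the elongation factor that moves the ribosome along, had 3216, 1882 and 2938 CPM in the heterozygous tumours, against 1657, 1640 and 2021 CPM in the wild-type tumours. Ribosome biogenesis factors were higher in 21 of 22 cases, 5 at that p. Polr1a, the large subunit of RNA polymerase I, had 141, 98.6 and 131 CPM in the heterozygous tumours, against 64.6, 80 and 89.1 CPM in the wild-type tumours. Rrs1, a factor of large-subunit assembly, had 16.2, 14.3 and 22.7 CPM in the heterozygous tumours, against 9.9, 10.4 and 11 CPM in the wild-type tumours. Nop58, a core protein of box C/D particles, had 71.4, 46.5 and 115 CPM in the heterozygous tumours, against 38.7, 43.9 and 52.1 CPM in the wild-type tumours, so that heterozygous tumour 2 lay among the wild-type values. Without heterozygous tumour 3, 13 of the 22 biogenesis factors were higher and 0 met the unadjusted p, whereas 71 of 81 ribosomal protein genes were higher and 13 met it. Over all alternatives the count at that p lay between 0 and 13 for the biogenesis factors and between 5 and 39 for the ribosomal protein genes, each the lowest with the acinar covariate or without heterozygous tumour 3.

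Enzymes that modify transfer RNA were higher in 19 of 22 cases, 4 at an unadjusted p under 0.05 against 5.51% of all genes. The clearest was Qtrt1, the catalytic subunit that inserts queuine into transfer RNA, at 23.7, 26 and 26.6 CPM in the heterozygous tumours, against 11.2, 9.22 and 8.91 CPM in the wild-type tumours. Its log2 fold change was 1.38 ± 0.23 (edgeR adjusted p = 0.114), with tight values in both groups. Mitochondrial ribosomal proteins were higher in 65 of 78 cases, 7 at that p and 16 without overlap, with a median of 0.21. Over all genes these 2 shares were 5.51% and 7.36%. Mrps5 had 36, 34.4 and 32.3 CPM in the heterozygous tumours, against 17.7, 20.1 and 24.2 CPM in the wild-type tumours. Mrps12 had 10.6, 9.85 and 10.7 CPM in the heterozygous tumours, against 3.2, 6.41 and 4.95 CPM in the wild-type tumours. Both were apart. All 13 protein-coding genes of the mitochondrial genome were higher, 4 at that p. mt-Cytb, a subunit of respiratory complex III, had 892, 619 and 783 CPM in the heterozygous tumours, against 510.3, 506 and 461 CPM in the wild-type tumours. mt-Co1, of complex IV, overlapped at 3929, 5978 and 4893 CPM in the heterozygous tumours, against 4047, 3139 and 4180 CPM in the wild-type tumours. Without heterozygous tumour 3, 1 of the transfer RNA enzymes and 4 of the mitochondrial ribosomal proteins met that p; with the acinar covariate, 2, 4 and, of the 13 mitochondrial genome genes, 0 did. In the treated tumours labelled heterozygous, 69 of 81 cytosolic ribosomal protein genes were lower than in wild-type, with a median of -0.19.

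**Figure D2:**
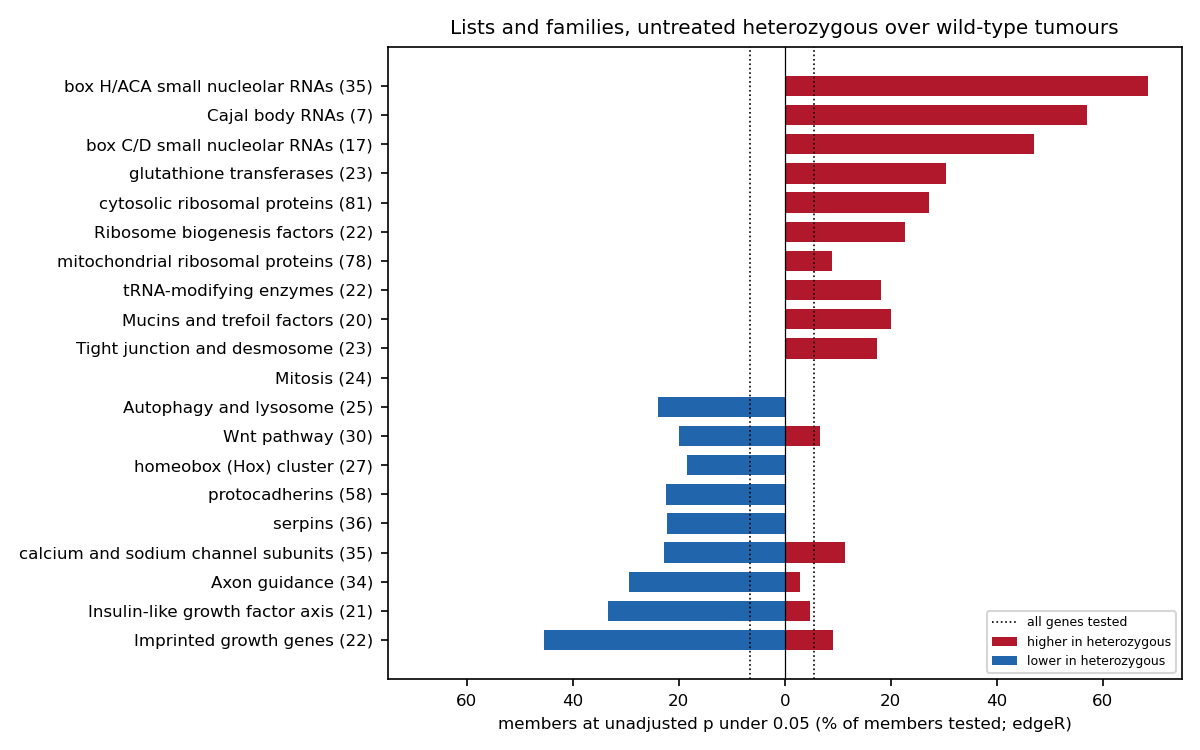
Bars show, for each list or family (number of members tested in brackets), the percentage of members at an unadjusted p under 0.05 in edgeR, higher in heterozygous tumours to the right in red and lower to the left in blue; dotted lines mark all genes tested, at 5.51% and 6.65%. Box H/ACA small nucleolar RNAs have the longest bar to the right, followed by Cajal body RNAs and box C/D small nucleolar RNAs. Imprinted genes have the longest bar to the left.

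Imprinted genes, which are expressed from 1 parental copy and many of which control growth, were mostly lower in the heterozygous tumours. Of 22 tested, 16 were lower in the heterozygous tumours, 10 of them at an unadjusted p under 0.05 against 6.65% of all genes, 2 were higher at that p, and the median log2 fold change was -1.35. Igf2, which encodes the growth factor IGF-II, had 9.51, 3.07 and 0.477 CPM in the heterozygous tumours, against 162, 35.1 and 67 CPM in the wild-type tumours. H19, the noncoding RNA that neighbours Igf2 on chromosome 7, had 10.7, 13.3 and 5.46 CPM in the heterozygous tumours, against 166, 113 and 243 CPM in the wild-type tumours. Neither gene overlapped between the groups, and the log2 fold changes were -4.34 ± 1.26 and -4.15 ± 0.96 (edgeR adjusted p = 0.248 and 0.188; over the alternatives 0.00266 to 0.801 for Igf2 and 1.1e-04 to 0.801 for H19). Cdkn1c, which encodes the cell cycle inhibitor p57, had 1.52, 3.67 and 4.89 CPM in the heterozygous tumours, against 9.9, 20.8 and 37.3 CPM in the wild-type tumours. Grb10, an adaptor that restrains insulin receptor signalling, had 38.6, 62.9 and 34.6 CPM in the heterozygous tumours, against 116, 147 and 174 CPM in the wild-type tumours. Both were apart, with log2 fold changes of -2.75 ± 0.56 and -1.68 ± 0.39.

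Further imprinted genes are named here after their values were seen. Peg3, a zinc finger gene expressed from the paternal copy, had 7.86, 11.1 and 22.5 CPM in the heterozygous tumours, against 74.3, 81.3 and 80.7 CPM in the wild-type tumours, every heterozygous value being far below every wild-type value. Mest and Ndn had log2 fold changes of -1.42 ± 0.50 and -1.28 ± 0.41. Gnas, which encodes the stimulatory G protein alpha subunit, had 224, 352 and 292 CPM in the heterozygous tumours, against 448, 329 and 481 CPM in the wild-type tumours, with overlap. Meg3 and Plagl1 overlapped as well; Meg3 was high in wild-type tumour 3 alone, at 345 CPM. Genes that ran the other way included Kcnq1ot1 and Phlda2. Kcnq1ot1 is a noncoding RNA that silences its neighbours on the paternal chromosome, and Phlda2 is a growth-restraining gene of the same cluster. Kcnq1ot1 had 900.0, 504 and 721 CPM in the heterozygous tumours, against 397, 544 and 251 CPM in the wild-type tumours, with overlap. Phlda2 had 2.61, 3.56 and 4.47 CPM in the heterozygous tumours, against 1.7, 1.5 and 1.46 CPM in the wild-type tumours, without overlap. The list shares the proteoglycan gene Dcn with the fibroblast markers. Fibroblast and islet markers were also lower in the heterozygous tumours (sums above), and their part in the result was not tested. With the acinar covariate, which is made of acinar markers only, 4 imprinted genes were lower at the unadjusted p and the median was -0.38. H19 was then at -2.85 and Igf2 at -3.94. Of the 22, 9 were lower at the unadjusted p without heterozygous tumour 3 and 6 without heterozygous tumour 1; without wild-type tumour 3 it was 9, with a median of -0.67. In the treated tumours, which share no library with these, 20 of 22 imprinted genes were lower in those labelled heterozygous than in wild-type, 6 at that p against 2.89% of all genes, with a median of -0.77. The log2 fold change of Cdh11 between those groups was -0.02.

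Genes of the insulin-like growth factor axis were mostly lower. Of 21 genes, Igf2 among them, 19 were lower, with a median of -0.56. At an unadjusted p under 0.05, 7 were lower, against 6.65% of all genes. Igf1, the circulating and stromal growth factor, had 51.2, 26.9 and 30.9 CPM in the heterozygous tumours, against 92.1, 122 and 77.6 CPM in the wild-type tumours. Igf2r, the receptor that clears IGF-II, had 168, 151 and 151 CPM in the heterozygous tumours, against 247, 253 and 259.9 CPM in the wild-type tumours, with narrow groups that were far apart relative to their spread. Of the binding proteins, Igfbp4 had 197, 359.8 and 246 CPM in the heterozygous tumours, against 684, 856 and 1006 CPM in the wild-type tumours. Igfbp7 had 489.8, 513 and 259 CPM in the heterozygous tumours, against 755, 728 and 642 CPM in the wild-type tumours. Neither overlapped. Igfbp3 was low in heterozygous tumour 3 above all, at 489.7, 581 and 108 CPM in the heterozygous tumours, against 968, 754 and 1158 CPM in the wild-type tumours. Igfbp5 was an exception, at 195, 70.8 and 182 CPM in the heterozygous tumours, against 49.2, 75.5 and 42.8 CPM in the wild-type tumours. Its value in heterozygous tumour 2 lay among the wild-type values. Without wild-type tumour 3, 17 of the 21 were lower and 5 met the unadjusted p, and with the acinar covariate 20 were lower and 4 met it.

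**Figure D3:**
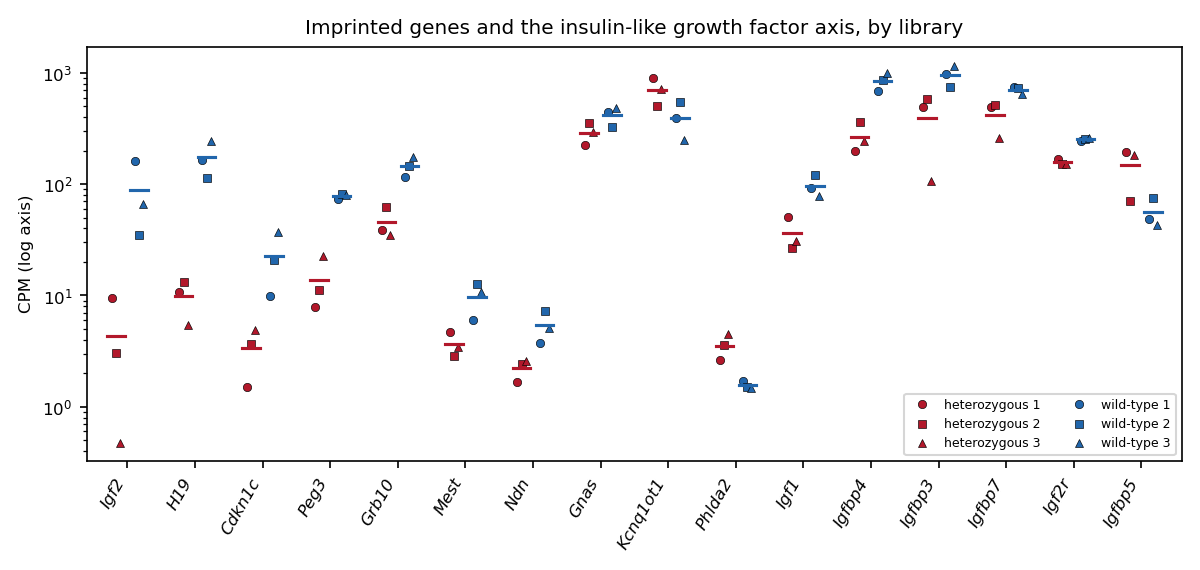
Imprinted and insulin-like growth factor genes in each untreated tumour (CPM, log scale), heterozygous left of wild-type. Igf2, H19, Peg3 and Igf2r are lower in all 3 heterozygous tumours than in all 3 wild-type tumours.

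Families of development and cell adhesion were also mostly lower. Axon guidance genes steer growing nerve fibres and also shape vessels and stroma. They were lower in 29 of 34 cases, with a median log2 fold change of -0.50. At an unadjusted p under 0.05, 10 were lower, against 6.65% of all genes. Draxin, a secreted guidance protein, had 0.659, 1.06 and 0.496 CPM in the heterozygous tumours, against 5.51, 11.9 and 5.62 CPM in the wild-type tumours, a log2 fold change of -3.38 ± 0.49 (edgeR adjusted p = 0.0612). Robo1, a receptor for Slit proteins, had 14.1, 14.9 and 12.2 CPM in the heterozygous tumours, against 42.5, 39.9 and 29.5 CPM in the wild-type tumours. Slit2, a ligand of Robo1, had 45.7, 46.6 and 49.9 CPM in the heterozygous tumours, against 121, 97.8 and 54.7 CPM in the wild-type tumours. Both were without overlap, though wild-type tumour 3 came close to the heterozygous values for Slit2. Protocadherins, which mediate cell recognition, were lower in 49 of 58 cases, 13 at that p. Pcdh7 had 26.2, 20.1 and 12.5 CPM in the heterozygous tumours, against 53.5, 34 and 117 CPM in the wild-type tumours, without overlap. Pcdh12, a protocadherin of endothelium, had 5.31, 5.16 and 4.71 CPM in the heterozygous tumours, against 7.65, 16.5 and 8.2 CPM in the wild-type tumours. The Hox genes, which set position along the body axis, were lower in 24 of 27 cases, 5 at that p. Without heterozygous tumour 3 the counts at that p were 5 of 34 axon guidance genes, 8 of 58 protocadherins and 1 of 27 Hox genes; with the acinar covariate they were 3, 3 and 8. In the treated tumours labelled heterozygous, 41 of 58 protocadherins were higher than in wild-type, 6 at an unadjusted p under 0.05. So were 18 of 27 Hox genes, 0 at that p. Of 34 axon guidance genes, 14 were higher there (2 at that p) and 20 lower (1 at that p). Over all genes in that comparison, 4.66% were higher and 2.89% lower at that p.

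Among signalling pathways, Wnt genes were mixed: 21 of 30 were lower, 6 at an unadjusted p under 0.05, and 2 were higher at that p. Over all genes 6.65% were lower and 5.51% higher at that p. Wnt6, a ligand, had 0.154, 0.13 and 0.0993 CPM in the heterozygous tumours, against 0.64, 1.18 and 0.552 CPM in the wild-type tumours. Lef1, a transcription factor of the pathway, had 4.66, 2.07 and 1.15 CPM in the heterozygous tumours, against 17.4, 7.59 and 4.71 CPM in the wild-type tumours, and heterozygous tumour 1 was just below wild-type tumour 3. Fzd2, a Wnt receptor, had 11.9, 8.46 and 6.47 CPM in the heterozygous tumours, against 18.5, 19.3 and 19.6 CPM in the wild-type tumours. Znrf3, which removes Wnt receptors from the membrane, was higher, at 36.4, 28.1 and 37.9 CPM in the heterozygous tumours, against 25.7, 18.7 and 16.2 CPM in the wild-type tumours. Notch genes were lower in 15 of 20 cases, 4 at that p, and targets of YAP and TEAD in 16 of 18 cases, 4 at that p. With the acinar covariate 2 Wnt and 2 Notch genes met that p. Vgll3, a TEAD cofactor, had 10.8, 13.3 and 6.28 CPM in the heterozygous tumours, against 26.1, 39.5 and 24.1 CPM in the wild-type tumours. Axl, a receptor kinase, had 179, 235 and 319 CPM in the heterozygous tumours, against 331, 571 and 657 CPM in the wild-type tumours. Pericyte and endothelial markers were also lower: pericyte markers summed to 314 to 548 CPM in heterozygous and 763 to 1205 CPM in wild-type tumours, and endothelial markers to 220.5 to 343 CPM in heterozygous and 344 to 559 CPM in wild-type tumours. The part of stromal and vascular cell content in these families was not tested.

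Of the other genes that were lower by the smallest p-values, most belong to no list above. Cyp7b1, an oxysterol hydroxylase, had 3.56, 4.19 and 2.12 CPM in the heterozygous tumours, against 18.1, 36.1 and 12.8 CPM in the wild-type tumours. Gja1, the gap junction protein connexin 43, had 36.1, 38.9 and 21.3 CPM in the heterozygous tumours, against 121, 95.5 and 110.2 CPM in the wild-type tumours. Tpbg, an oncofetal glycoprotein, had 12.3, 12.9 and 15.6 CPM in the heterozygous tumours, against 37.3, 32 and 27.2 CPM in the wild-type tumours. Dach1, a transcription factor, had 0.461, 0.41 and 0.318 CPM in the heterozygous tumours, against 1.87, 1.98 and 1.58 CPM in the wild-type tumours. All 4 were without overlap; their log2 fold changes were -2.76 ± 0.42, -1.76 ± 0.30, -1.24 ± 0.20 and -2.19 ± 0.33, with edgeR adjusted p of 0.0786, 0.114, 0.0948 and 0.0786. Gc, the vitamin D binding protein made by liver and by islet alpha cells, had 1.1, 2.03 and 2.32 CPM in the heterozygous tumours, against 12.7, 60.2 and 32 CPM in the wild-type tumours. Klhl13, an X-linked adaptor of a ubiquitin ligase, had 2.79, 3.39 and 2.68 CPM in the heterozygous tumours, against 8.09, 12.6 and 12.1 CPM in the wild-type tumours. Bhlhe22, a neural transcription factor, was at 0.747, 1.12 and 0.377 CPM in the heterozygous tumours, against 8.56, 6.73 and 2.98 CPM in the wild-type tumours.

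Several families of epithelial function and detoxification were more often higher. Glutathione transferases, which couple glutathione to reactive compounds, were higher in 21 of 23 cases, with a median of 0.68. At an unadjusted p under 0.05, 7 were higher, against 5.51% of all genes. Gsto1 had 270.1, 166 and 254 CPM in the heterozygous tumours, against 128, 100.5 and 95 CPM in the wild-type tumours. Mgst2, a microsomal member, had 23.1, 21.3 and 25.4 CPM in the heterozygous tumours, against 14.5, 9.43 and 13.9 CPM in the wild-type tumours. Both were without overlap. Gstp2, for which reads may be shared with its close relatives, had 5.2, 4.04 and 3.87 CPM in the heterozygous tumours, against 0.397, 2.21 and 1.34 CPM in the wild-type tumours. The family count was 6 without heterozygous tumour 3, 3 without wild-type tumour 3 and 7 with the acinar covariate. Tight junction and desmosome genes were higher in 17 of 23 cases, 4 at an unadjusted p under 0.05, and 2 at that p without heterozygous tumour 1 or without wild-type tumour 3. Tjp3, a scaffold of tight junctions, had 96.1, 60.7 and 74.1 CPM in the heterozygous tumours, against 29.1, 24.5 and 14.3 CPM in the wild-type tumours, a log2 fold change of 1.77 ± 0.40. Ppl, a plakin of the desmosome, had 146, 272 and 242 CPM in the heterozygous tumours, against 117, 82.2 and 146 CPM in the wild-type tumours, heterozygous tumour 1 lying just above wild-type tumour 3. Of the cholesterol synthesis and uptake genes 17 of 22 were higher, 2 at that p and 6 without overlap, against 5.51% and 7.36% of all genes. With the acinar covariate the count at that p was 1 for the junction genes, with a median of 0.01, and 5 of the 22 cholesterol genes were higher and 17 lower, with 3 lower at that p and a median of -0.46. Dhcr7, which makes the last step to cholesterol, had 28.3, 45.4 and 25 CPM in the heterozygous tumours, against 12, 15.5 and 9.15 CPM in the wild-type tumours.

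Further genes that were higher without overlap were spread over many functions. Nr3c2, the mineralocorticoid receptor, had 31.4, 33.3 and 26 CPM in the heterozygous tumours, against 11.4, 11 and 7.38 CPM in the wild-type tumours. Hdac11, a histone deacetylase, had 44.9, 30 and 28.1 CPM in the heterozygous tumours, against 11.2, 11.1 and 17.5 CPM in the wild-type tumours. Naprt, an enzyme that makes NAD from nicotinic acid, had 20.2, 13.4 and 16.6 CPM in the heterozygous tumours, against 4.57, 4.91 and 5.21 CPM in the wild-type tumours. The translation initiation factor Eif3g had 67.9, 59.1 and 88.5 CPM in the heterozygous tumours, against 34.7, 35.5 and 39.9 CPM in the wild-type tumours. The edgeR adjusted p was 0.128 for Nr3c2, 0.133 for Hdac11, 0.146 for Naprt and 0.133 for Eif3g. Grin1, a glutamate receptor subunit, and Celf4, an RNA-binding protein, were higher as well, with log2 fold changes of 2.10 ± 0.40 and 1.54 ± 0.28. Both genes, and Hdac11 with Gm44002, overlap transcripts of the opposite strand that were also higher, so that the source of the reads is uncertain. Naprt shares part of its position with Eef1d on the same strand. Eef1d had a log2 fold change of 0.82 ± 0.44, with mean levels of 126 CPM in heterozygous and 71.2 CPM in wild-type tumours, and its groups overlapped. Dmbt1, a secreted mucosal glycoprotein, had 21012, 3788 and 3801 CPM in the heterozygous tumours, against 1188, 1066 and 1139 CPM in the wild-type tumours. Every heterozygous tumour was above every wild-type tumour, and heterozygous tumour 1 was more than 5-fold above the other 2.

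In several groups a single tumour stood out. Mucins and trefoil factors were higher in 17 of 20 cases, 4 at an unadjusted p under 0.05 against 5.51% of all genes. Muc5ac, a secreted mucin, had 26.7, 9.74 and 2637 CPM in the heterozygous tumours, against 88.8, 54.9 and 29.7 CPM in the wild-type tumours. Muc5b, another, had 7.6, 6.65 and 318 CPM in the heterozygous tumours, against 6.57, 0.784 and 1.36 CPM in the wild-type tumours. Both were high in heterozygous tumour 3 only. Without it, 2 mucins met that p, and the log2 fold change of Muc5ac was -1.66 and that of Muc5b 1.29. Muc3 was high in heterozygous tumours 1 and 2, at 147, 42.3 and 2.7 CPM in the heterozygous tumours, against 3.99, 3.23 and 2.07 CPM in the wild-type tumours. Mitosis genes were higher in 24 of 24 cases, yet 0 met the unadjusted p and 0 were without overlap. Cdc20, an activator of mitotic exit, had 9.58, 6.59 and 40.7 CPM in the heterozygous tumours, against 8.6, 9.87 and 13.7 CPM in the wild-type tumours. Kif11, a spindle motor, had 14, 9.5 and 64.9 CPM in the heterozygous tumours, against 12.3, 19.3 and 15.3 CPM in the wild-type tumours. Without heterozygous tumour 3, 2 of the 24 mitosis genes were higher and 22 lower. Histone genes of the replication-dependent clusters held 0.0810%, 0.0845% and 0.237% of counts in the heterozygous tumours, against 0.0783%, 0.117% and 0.108% in the wild-type tumours. Of 62 tested, 54 were higher, and 10 of the 62 without heterozygous tumour 3. The shares overlapped between the groups, with a two-sided exact permutation p of 0.8.

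Neighbouring genes that were high together in a single tumour were looked for after the values were seen. In wild-type tumour 3, a stretch of chromosome 9 between 6 and 10 Mb (GRCm38) held 19 protein-coding genes with a mean of at least 1 CPM, of which 11 were above all 5 other libraries and 13 were over 2-fold their median. Yap1, a growth-promoting transcription coactivator, had 117, 132 and 134 CPM in the heterozygous tumours, against 114, 89.1 and 1365 CPM in the wild-type tumours, so that wild-type tumour 3 was 11.7-fold above the median of the others. Birc2 and Birc3, inhibitors of cell death, followed the same pattern. Birc2 had 46.4, 52.2 and 53.5 CPM in the heterozygous tumours, against 41.7, 55 and 372 CPM in the wild-type tumours. Birc3 had 39.2, 51.4 and 52.8 CPM in the heterozygous tumours, against 47.7, 67.6 and 254 CPM in the wild-type tumours. The collagenase gene Mmp13 lies in the same stretch, at 4.17, 2.79 and 2.78 CPM in the heterozygous tumours, against 17.1, 32.9 and 281 CPM in the wild-type tumours. With all libraries, Yap1 and Birc2 had log2 fold changes of -2.04 ± 0.84 and -1.62 ± 0.67, and without wild-type tumour 3 these were 0.33 and 0.07. Mmp13 and the stromelysin gene Mmp10 had log2 fold changes of -2.95 and -2.17 without it. Mmp12, Mmp7 and Trpc6, in the same stretch, were not raised in wild-type tumour 3.

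In heterozygous tumour 3 several stretches stood out, of which 2 are described by gene. On chromosome 9 between 74 and 78 Mb, 14 of 19 such genes were above all other libraries. Myo5c, an epithelial transport motor, had 133, 22.5 and 953 CPM in the heterozygous tumours, against 69.2, 78.7 and 115 CPM in the wild-type tumours. Mapk6, an atypical kinase, had 256, 164 and 893 CPM in the heterozygous tumours, against 283, 133 and 187 CPM in the wild-type tumours. Lysmd2 was 17.7-fold above the median of the other libraries. On chromosome 15 between 60 and 64 Mb, 3 protein-coding genes with a mean of at least 1 CPM and Pvt1 were all highest in heterozygous tumour 3. Fam84b had 156, 67.6 and 1730 CPM in the heterozygous tumours, against 58.6, 45.5 and 31.3 CPM in the wild-type tumours. Pvt1, a noncoding RNA beside Myc, had 11.4, 9.76 and 272 CPM in the heterozygous tumours, against 9.26, 12.9 and 9.55 CPM in the wild-type tumours. The transcription factor gene Myc had 53.6, 58.2 and 147 CPM in the heterozygous tumours, against 74.5, 39.6 and 57.6 CPM in the wild-type tumours. Pvt1 had a log2 fold change of 3.21 ± 1.05 with all 6 libraries and 0.00 without heterozygous tumour 3, and Myo5c 2.08 ± 0.94 and -0.17. Of 838 windows of 2 Mb with at least 5 genes, the median gene was more than 1 log2 unit away, up or down, from the other libraries in 2, 1 and 18 windows of the heterozygous tumours, against 3, 9 and 5 windows of the wild-type tumours. Those raised in heterozygous tumour 3 included chromosome 13 between 22 and 24 Mb, mostly histone genes, where 38 of 39 genes were above the median of the other libraries by a median of 1.43 log2 units, and chromosome 15 between 74 and 76 Mb, with a median of 1.17. More of its windows were low than high. Low ones included chromosome 7 between 72 and 74 Mb, with a median of -1.69, and chromosome 13 between 52 and 54 Mb, with a median of -1.21. DNA was not measured, so copy number was not tested.

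**Figure D4:**
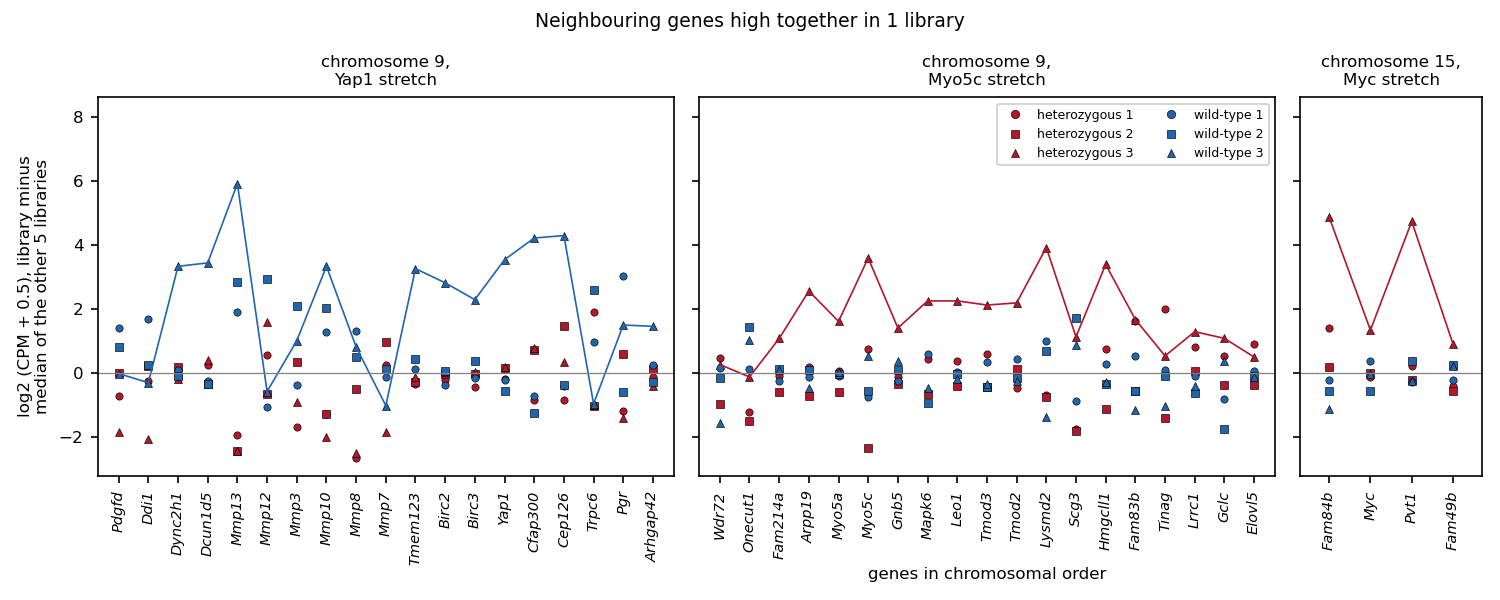
Genes in chromosomal order along 3 stretches, as log2 (CPM + 0.5) of each library minus the median of the other 5; red marks heterozygous and blue wild-type tumours, and the line joins the library that stands out. Wild-type tumour 3 stands out around Yap1, and heterozygous tumour 3 around Myo5c and around Myc.

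The share of genes at an unadjusted p under 0.05 varied between chromosomes. Over all genes tested 5.51% were higher and 6.65% lower at that p, and over protein-coding genes 5.12% and 7.65%. On chromosome 7, 196 of 1873 genes were higher at an unadjusted p under 0.05 (10.5%) and 97 lower (5.18%), and on chromosome 15, 83 of 764 were higher (10.9%) and 37 lower (4.84%). On the X chromosome 15 of 704 were higher (2.13%) and 81 lower (11.5%), and 62 were lower with Xist as a covariate. The count of higher genes lay between 129 and 203 on chromosome 7 and between 50 and 106 on chromosome 15 when single libraries were left out; it was 50 on chromosome 15 without wild-type tumour 1. The count of lower genes on chromosome 15 was 18 without heterozygous tumour 3 and 22 without wild-type tumour 2, and on chromosome 7 it was 47 without wild-type tumour 2. By library, the median protein-coding gene of chromosome 7 deviated by 0.14, 0.10 and -0.02 log2 units from the mean of the 6 libraries (each centred on its own median) in the heterozygous tumours, against -0.17, 0.07 and -0.08 in the wild-type tumours, so the groups overlapped. On the X chromosome the deviations were -0.06, -0.14 and -0.02 in the heterozygous tumours, against 0.15, 0.02 and 0.03 in the wild-type tumours, without overlap. On chromosome 4 the groups did not overlap either, with 0.0152, -0.0807 and -0.0978 in the heterozygous tumours, against 0.0502, 0.0200 and 0.0328 in the wild-type tumours. Every chromosome was compared in this way, and these separations were not tested. Larger shifts belonged to single tumours: heterozygous tumour 1 was at 0.31 on chromosome 6 and -0.42 on chromosome 18, and wild-type tumour 1 was at 0.30 on chromosome 14. In windows of 10 Mb, 12 of 221 windows were higher and 12 lower without overlap of the library medians. Among single genes, 7.36% were higher and 8.41% lower without overlap, so the windows separated the groups no more often than genes did. The window of chromosome 9 between 20 and 30 Mb, which holds Qtrt1 and Eif3g, had 25 of 87 genes higher and 2 lower at an unadjusted p under 0.05, and 15 higher at that p without heterozygous tumour 3.

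**Figure D5:**
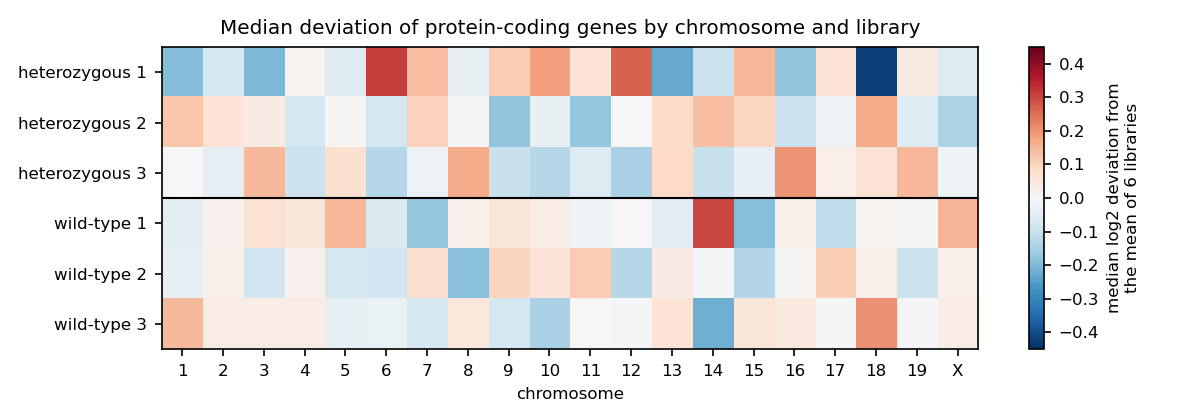
Median log2 deviation of protein-coding genes of each chromosome from the mean of the 6 untreated libraries, each library centred on its own median, heterozygous tumours above wild-type tumours. The largest single deviation is that of chromosome 18 in heterozygous tumour 1, at -0.42.

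Longer genes were more often lower. Among protein-coding genes split by exon length into 5 parts, the longest had 109 higher and 335 lower at an unadjusted p under 0.05 among 3246 genes, and the shortest had 200 higher and 222 lower among 3248. These were 3.36% and 10.3% of the longest part and 6.16% and 6.83% of the shortest, against 5.12% and 7.65% of all protein-coding genes. The median log2 fold change was -0.05 in the longest part and 0.10 in the shortest. The RNA integrity of the samples was not used here.

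In the treated tumours a second set of libraries labelled heterozygous and wild-type gave its own values for some of these genes. Trim12a, Trim5 and H2-T23 had log2 fold changes of 5.67, 3.66 and 2.30 there, against 6.15, 3.67 and 2.21 in untreated tumours. H19 and Igf2 were at -1.54 and -1.01. Snord22, Qtrt1, Lrat and Cyp7b1 were at -0.33, -0.92, 0.59 and 1.13, against 1.34, 1.38, -6.43 and -2.76 in untreated tumours. For these genes the difference between the genotype effects did not pass adjustment in edgeR.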

How the data were processed

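Per the labels' protocols, libraries were stranded total RNA of snap-frozen tumours with ribosomal RNA removed. The deposited values are expected counts per gene, which the authors made with RSEM on GRCm38, per the submitters' processing notes, and which were whole numbers in the files, except for 3 values given to 3 digits only, in Rn7s1, Col4a1 and Eef1a1. The sources used here do not give the RSEM version, the annotation release or the strand setting of counting. Of 52636 genes per file, 12076 were at 0 throughout, and 52489 identifiers matched GENCODE M21.

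Groups were taken from the sample labels. In R 4.3.3, edgeR 4.0.16 estimated 1 mean for each group by robust quasi-likelihood over all 12 libraries, after filterByExpr (24065 genes kept, at least 99.865% of counts) and TMM factors (0.897 to 1.09), with Benjamini-Hochberg adjustment over all genes tested. Totals lay between 39388328 and 56559413 counts over the 12 libraries. The biological coefficient of variation was 46.4%. Fits were tested on simulated data. Lists and families were described by counts and medians, with no set test. The members and lists were chosen with earlier results of these data known. Named genes were Cdh11, every gene past the adjusted threshold, the 15 of smallest p without overlap in each direction that have a full gene name, the 10 protein-coding genes with the largest mean CPM change each way, up to 4 members of smallest p per list, and the 3 nearest tested protein-coding genes on each side of Cdh11. Near-identical copies were found with blastn 2.17.0 at 95% identity over 50% of the transcript, and their counts were summed, as an alternative chosen after seeing the data. The others were other scalings, filters, DESeq2 1.42.0, voom (limma 3.58.1), the 6 untreated libraries alone, covariates for Xist and for acinar markers, a replicate block, and leaving out each library.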

Additional observations from a re-analysis of the deposited data

Results flagged for a closer look

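In 2 genes the genotype effect differed between untreated and gemcitabine-treated tumours by edgeR's interaction test (adjusted p = 0.0048 for each). For Gm10260 the log2 genotype effect in untreated minus treated tumours was -5.82, from -7.14 in untreated and -1.32 in treated tumours. For BC023719 it was -9.65, with -1.18 in treated tumours and 0 counts in all 3 untreated heterozygous tumours, so that its size depends on the fit. Both genes have near-identical copies, and in neither was the sum with the copies called between the untreated genotypes.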

How the results depend on the processing

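The number of genes called higher was 1 and became 2 with upper quartile scaling, 2 with scaling from protein-coding genes, 2 with a filter of more than 1 CPM in 3 libraries, 4 without a filter, 3 with voom and 279 with DESeq2's test. Leaving out single libraries gave 0 to 4. The number called lower was 3 and became 6 without a filter, 424 with DESeq2's test and 1 with the 6 untreated libraries alone; leaving out single libraries gave 2 to 10. With the acinar covariate 719 genes were higher and 675 lower at an unadjusted p under 0.05, against 1327 and 1601. Without single libraries the counts were 995 to 1685 higher and 1182 to 1839 lower. The log2 fold change of Cdh11 lay between -1.25 and -0.62 in every alternative run. The replicate numbers do not pair the tumours (correlations of -0.247 to 0.173 between groups); with a replicate block 1 gene was called higher and 3 lower, and Cdh11 was at -1.02. With single libraries left out the log2 fold change changed sign within these ranges: -0.41 to 1.23 for Cdc20, -0.41 to 1.34 for Kif11, -0.033 to 0.84 for Myc, -0.61 to 2.65 for Lysmd2, -0.17 to 2.63 for Myo5c and -1.66 to 4.53 for Muc5ac, the lowest without heterozygous tumour 3. They were -2.54 to 0.33 for Yap1 and -2.07 to 0.069 for Birc2, the highest without wild-type tumour 3, and -0.69 to 0.031 for A930015D03Rik, the highest without heterozygous tumour 1. With the acinar covariate the values were -0.081 for Myc and 0.058 for Birc2. Gm10260 summed with its copies, an alternative chosen after seeing the data, was at 0.61. The cause was not tested. Of the values of named genes under the alternatives, sums with copies aside, 2404 kept direction and side of the threshold. Another 84 passed it newly, 9 no longer passed it and 11 changed sign. Only 4 genes passed it in the main fit, so most of the 2404 were uncalled genes that stayed uncalled and say little about stability. The 9 lost calls were those of Lrat, Trim12a and BC023719, mostly Lrat, while Gm10260 kept its call in each of these alternatives. Precision is limited by 3 tumours per group.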

Other observations

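Other families had shares above those of all genes in the lower direction. Serpins, which inhibit proteases, were lower in 31 of 36 cases, 8 at an unadjusted p under 0.05, with a median log2 fold change of -0.88. Genes of autophagy and the lysosome were lower in 19 of 25 cases, 6 at that p. Ctsb, the protease cathepsin B, had 437, 506 and 381 CPM in the heterozygous tumours, against 639.7, 724 and 575 CPM in the wild-type tumours. The groups did not overlap. Over the alternatives the counts at that p lay between 3 and 12 for serpins and between 1 and 8 for autophagy and lysosome genes. Proteasome subunits (11 of 26 higher, 1 at that p) and fatty acid oxidation genes (11 of 22 higher, 0 at that p) had medians of -0.02 and 0.00.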
